A study of Arabidopsis thaliana with 6 samples.

Results

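Transcripts of genes of the endoplasmic reticulum (ER) body were examined in Arabidopsis thaliana seedlings on Affymetrix ATH1 arrays. The genes were looked up by symbol or RefSeq synonym: PYK10, NAI2, JAL33, BGLU21, BGLU22, JAL22, JAL23, JAL30, JAL34 and NAI1. Of these 10 genes, 7 were each matched by 1 probe set that names no other gene, so 7 of the 22746 probe sets tested and 7 of the 13286 genes named are described. BGLU21 and BGLU22 share a single probe set, which is paired with both and was therefore not counted, and no probe set was paired with JAL30, which was not analysed here. No filter on low values was used, so all 7 were tested.

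Whole seedlings aged 9 days were sampled in 3 groups of 2 liquid cultures, with 1 array per culture. The first group was the mutant mp-B4149, given 10 µM dexamethasone (DEX) for 1 h followed by 1 h with the auxin IAA at 50 µM. The second was the GR-bdl line (pRPS5A-Myc-GR-bdl) with the same DEX and IAA, and the third was the GR-bdl line with 50 µM IAA for 1 h and no DEX. All 6 cultures received IAA, so no group shows seedlings without added auxin, and neither wild type nor mp without DEX is among the groups. MP (MONOPTEROS) is an auxin response factor, and its mutants typically lack the root that is laid down in the embryo. In the other line a stabilised form of the MP-binding repressor BDL is fused to the glucocorticoid receptor, which holds it outside the nucleus until DEX is given. The RPS5A promoter that drives it is known for activity in dividing cells. Neither MP nor BDL had a probe set of its own in the annotation used here, so the labels were not checked on them.

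ER bodies are rod-shaped compartments of the ER in Arabidopsis and its relatives, best known from roots and from the epidermis of young seedlings. They store large amounts of beta-glucosidases that carry an ER retention signal, chiefly PYK10, kept apart from the glucosides in the vacuole. When a cell is broken the enzymes meet their substrates, among them indole glucosinolates, and PYK10 joins a large complex with jacalin-related lectins (JAL proteins), of which some are reported to enlarge the complex and others to limit it. The basic helix-loop-helix factor NAI1 is needed for ER bodies and for normal levels of PYK10 and NAI2, and NAI2 is an ER body protein without which the bodies do not form. PYK10 is also known as BGLU23.

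In mp seedlings 4 of the 7 genes were higher than in GR-bdl seedlings without DEX, and 3 were not called. These groups differ both in line and in DEX, which only the mp group of this comparison received. The comparison alone cannot tell line and DEX apart. A call is an adjusted p under 0.05 in limma with Benjamini-Hochberg adjustment over all probe sets. NAI1, NAI2, JAL33 and JAL23 rose, by between 0.66 and 1.64 on the log2 scale, whereas PYK10, JAL34 and JAL22 were not called. None of the 7 was called lower. The probe set shared by BGLU21 and BGLU22, which is not among the 7, was called lower (−6.37 ± 0.15, limma adjusted p = 3.31e-08). The background is wide, since 41.5% of all probe sets were called in this comparison, 23.9% higher and 17.5% lower. The median difference of the 7 genes was 0.66, beside 0.12 over all probe sets. That median is the value of JAL23, whose mean log2 intensity was under 4 in every group. The 7 differences ran from −0.10 for JAL34 to 1.64 for NAI1, and the median absolute difference over all probe sets was 0.30. The same 4 genes were called higher against GR-bdl seedlings with DEX, where 40.1% of all probe sets were called, 22.1% being higher. Both comparisons use the same mp arrays. Between GR-bdl seedlings with and without DEX limma called 0 of the 7, and 0 had an unadjusted p under 0.05 (the smallest was 0.114, for JAL33). Of all probe sets 2.27% were called there, 0.637% higher and 1.64% lower.

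**Figure D1:**
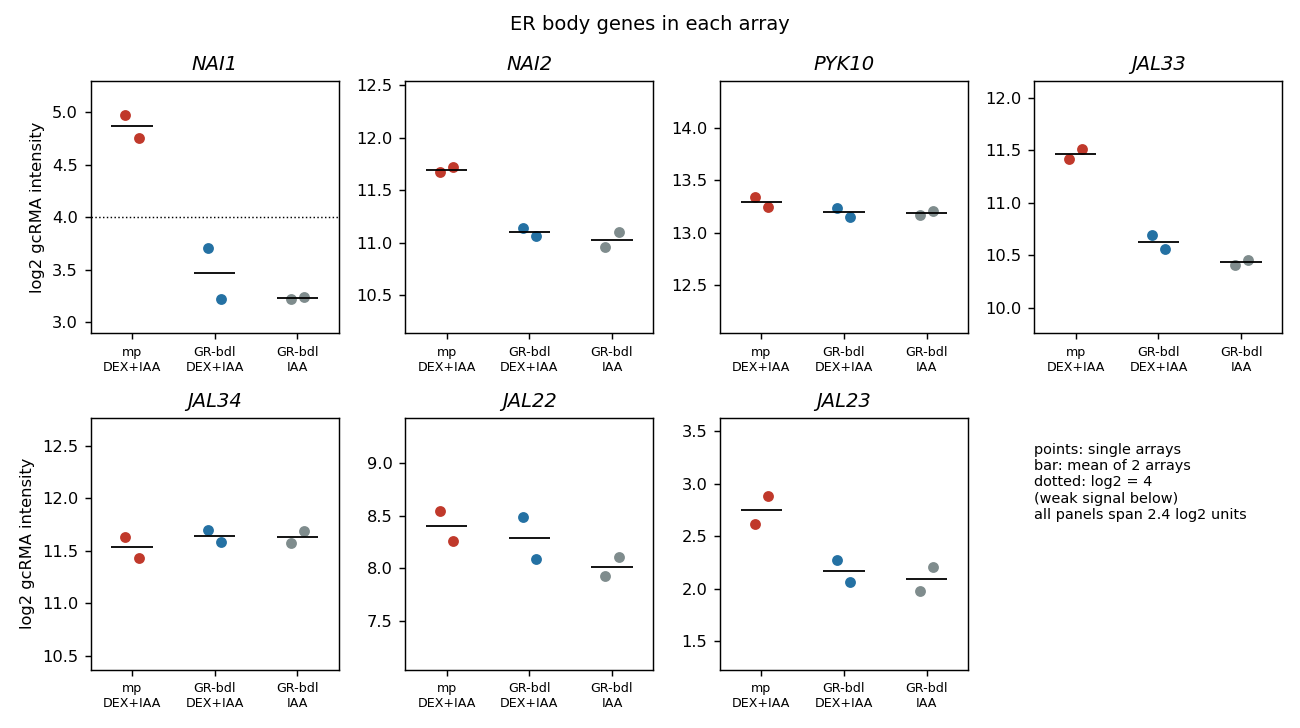
The log2 gcRMA intensity (vertical axis) of 7 ER body genes is plotted for the 6 arrays, with mp on the left, GR-bdl with DEX in the middle and GR-bdl without DEX on the right. Points are arrays and bars are means of 2 arrays. NAI1, NAI2, JAL33 and JAL23 lie higher in both mp arrays than in all 4 GR-bdl arrays. So does PYK10, by a small margin, and the group means of PYK10 and JAL34 differ by at most 0.11. The share of all probe sets with such a separation was not counted, and 23.9% were called higher in mp than in GR-bdl without DEX.

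NAI1 encodes the factor needed for ER bodies and for normal levels of PYK10 and NAI2. Its gcRMA intensity was 31.5 and 27.0 in mp, against 13.1 and 9.36 in GR-bdl with DEX and 9.32 and 9.47 in GR-bdl without DEX. Both mp arrays lay above all 4 GR-bdl arrays, and the 2 GR-bdl groups overlapped. The share of all probe sets with mp above all 4 GR-bdl arrays was not counted. On the log2 scale NAI1 averaged 4.87 ± 0.16 in mp, 3.47 ± 0.34 in GR-bdl with DEX and 3.23 ± 0.02 in GR-bdl without DEX (SD, n = 2 each). A group mean under 4 is called a weak signal here, since 43.1 to 44.1% of the probe sets of each array fell below that value. NAI1 was weak in both GR-bdl groups, which limits what the size of its rise can show. NAI1 was 3.11-fold higher in mp than in GR-bdl without DEX, a log2 difference of 1.64 ± 0.17 (SE) with a limma adjusted p of 0.000102. Against GR-bdl with DEX the difference was 1.40 ± 0.17, with a limma adjusted p of 0.00026. The mp level was the highest, and the 2 GR-bdl groups had no settled order. They differed by 0.24 ± 0.17 (limma adjusted p = 0.645), and by −0.0059 without DEX-treated GR-bdl array 1 and 0.48 without DEX-treated GR-bdl array 2.

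The neighbours of NAI1 on the chromosome, AT2G22760 (BHLH19) and AT2G22750 (BHLH18), encode related factors of the same family. Neither was called in mp against GR-bdl without DEX, with log2 differences of 0.17 ± 0.11 and 0.09 ± 0.17, and both were weak in all 3 groups. BHLH25, another relative, was weak as well and was not called (−0.09 ± 0.12). MYC3 and MYC4, factors of jasmonate response and glucosinolate formation, were not called in that comparison, at −0.09 ± 0.16 and −0.06 ± 0.22. MYC4 was called higher in mp than in GR-bdl with DEX (0.65 ± 0.22, limma adjusted p = 0.043). Its intensities there were 25.3 and 23.9 in mp, against 20.4 and 12.0 in GR-bdl with DEX, where its mean was weak. Of the 6 factors listed beside NAI1, 5 were measured, and that was their only call in the 3 comparisons.

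NAI2 encodes the protein that ER bodies need in order to form. Its intensity was 3253 and 3375 in mp, against 2259 and 2133 in GR-bdl with DEX and 1995 and 2191 in GR-bdl without DEX. The mp arrays again lay above all others, a separation not counted over all probe sets, and the GR-bdl groups overlapped. NAI2 was 1.58-fold higher in mp than in GR-bdl without DEX, with a log2 difference of 0.66 ± 0.11 and a limma adjusted p of 0.00161. Against GR-bdl with DEX the difference was 0.59 ± 0.11 (limma adjusted p = 0.00301). Between GR-bdl with and without DEX it differed by 0.07 ± 0.11 (limma adjusted p = 0.866). Neither mp call held after the arrays were centred on hybridization controls, where the difference was 0.33 in each comparison (limma adjusted p = 0.0908 and 0.0961).

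PYK10, the main beta-glucosidase of the ER body, was measured at high intensity in every group. It reached 10380 and 9746 in mp, against 9705 and 9083 in GR-bdl with DEX and 9222 and 9494 in GR-bdl without DEX. Both mp arrays were above the other 4, the nearest pair being 9746 in mp and 9705 in GR-bdl with DEX, and the GR-bdl groups overlapped. How many of all probe sets separate in this way was not counted. No comparison was called. The log2 difference was 0.10 ± 0.11 between mp and GR-bdl without DEX, with a 95% interval of −0.15 to 0.35 (limma adjusted p = 0.47). Against GR-bdl with DEX it was 0.10 ± 0.11, and between the GR-bdl groups 0.00 ± 0.11, with an interval of −0.24 to 0.25. PYK10 belongs to the 78 probe sets with a mean log2 intensity above 13. Few of these were called between mp and GR-bdl without DEX, 3.85% higher and 3.85% lower, with a median absolute difference of 0.09 beside 0.30 over all probe sets. The part of this narrow range in the PYK10 values was not tested. By mean level over the 6 arrays, NAI1 and JAL23 lie at or under 4, where 15.6% were called higher and 9.99% lower. NAI2, JAL33 and JAL34 lie between 10 and 13, where 23.5% were called higher and 19.4% lower. JAL22 lies between 7 and 10, with 29.9% higher and 23.1% lower.

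**Figure D2:**
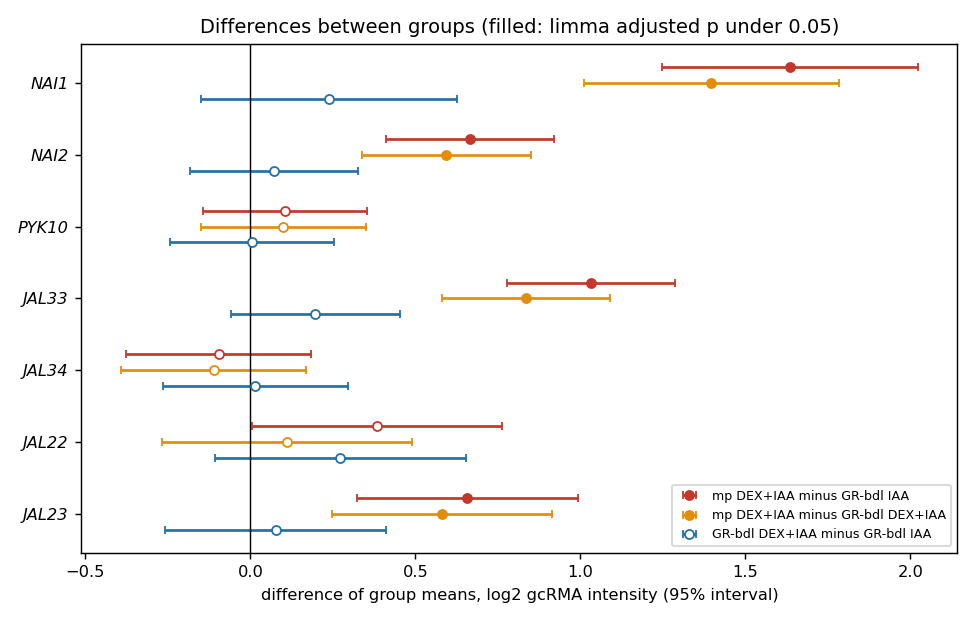
Differences of group means in log2 gcRMA intensity (horizontal axis) are shown for 7 ER body genes in 3 comparisons, with 95% intervals from limma that are not adjusted for multiple testing. Filled points had a limma adjusted p under 0.05: NAI1, NAI2, JAL33 and JAL23 in both mp comparisons, and no gene between the GR-bdl groups.

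The signal of the probe set paired with BGLU22 and BGLU21 together cannot be assigned to either of these close relatives of PYK10. Its intensity was 10.8 and 11.3 in mp, against 917 and 801 in GR-bdl with DEX and 788 and 1053 in GR-bdl without DEX. It was weak in mp and strong in all 4 GR-bdl arrays. The log2 difference of mp from GR-bdl without DEX was −6.37 ± 0.15 (limma adjusted p = 3.31e-08), and that of GR-bdl with DEX from GR-bdl without DEX was −0.09 ± 0.15. The level in mp bounds what the size of this decrease can show.

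Of the other PYK10 relatives, 3 of the 12 further ER body genes listed were measured, all of them beta-glucosidase genes. BGLU25 had intensities of 363 and 388 in mp, against 250 and 261 in GR-bdl with DEX and 217 and 214 in GR-bdl without DEX. It rose by 0.80 ± 0.11 in mp against GR-bdl without DEX (limma adjusted p = 0.000462) and by 0.55 ± 0.11 against GR-bdl with DEX. BGLU19 and BGLU20 were weak in all 3 groups and were not called.

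Across the beta-glucosidase family, 22 of 47 listed genes had a probe set of their own, PYK10 included. Of the other 21, 5 were higher, 4 lower and 12 not called in mp against GR-bdl without DEX, with a median difference of 0.11. These shares are near those of all probe sets (23.9% higher and 17.5% lower). The largest called increases were BGLU40 (2.67 ± 0.16), BGLU28 (1.46 ± 0.24) and BGLU25. The largest called decreases were BGLU33 (−1.94 ± 0.25), BGLU16 (−1.11 ± 0.11) and BGLU46 (−1.04 ± 0.16), of which BGLU46 is linked to the release of lignin precursors. BGLU28, which is known to act in glucosinolate breakdown under sulfur shortage, and BGLU33 were weak in all 3 groups, as were 14 of these 21 genes in all. BGLU46 was weak in mp and in GR-bdl with DEX, which limits what the size of its decrease can show. None of the 21 was called between the GR-bdl groups, where only 2.27% of all probe sets were called.

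**Figure D3:**
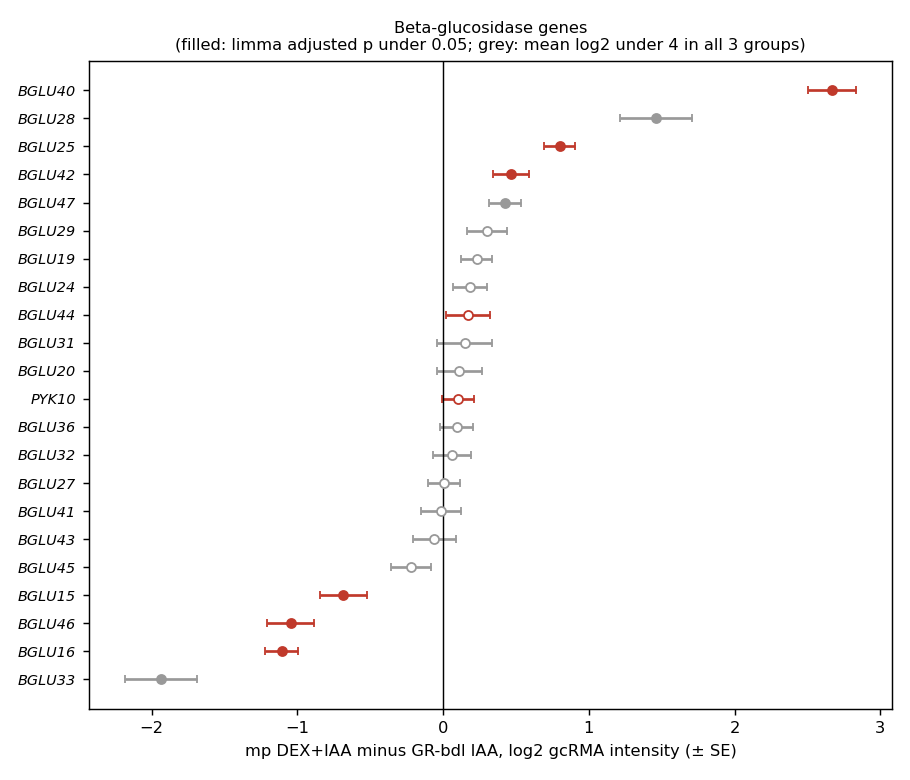
The log2 difference of mp from GR-bdl without DEX (horizontal axis, ± SE) is shown for 22 beta-glucosidase genes, ordered by size. PYK10 lies at 0.10 between increases such as BGLU40 (2.67) and decreases such as BGLU16 (−1.11), and grey marks the 14 genes whose mean lay under 4 in all 3 groups.

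Of the 4 lectin genes measured, 2 rose in mp (JAL33 and JAL23) and 2 were not called. JAL23 was weak in every group, and its calls did not hold in every setting. Among all probe sets, 23.9% were called higher in mp against GR-bdl without DEX, and 22.1% against GR-bdl with DEX. JAL33 had intensities of 2739 and 2915 in mp, against 1657 and 1514 in GR-bdl with DEX and 1358 and 1406 in GR-bdl without DEX. The groups did not overlap, but the share of all probe sets with no overlap was not counted. JAL33 was 2.04-fold higher in mp than in GR-bdl without DEX, a log2 difference of 1.03 ± 0.11 with a limma adjusted p of 0.00013. Against GR-bdl with DEX it was higher by 0.84 ± 0.11 (limma adjusted p = 0.000459). The step between the GR-bdl groups, 0.20 ± 0.11, was not called (limma adjusted p = 0.54).

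JAL34 is the gene next to JAL33 in the RefSeq table. Its intensity was 3172 and 2754 in mp, against 3325 and 3064 in GR-bdl with DEX and 3031 and 3295 in GR-bdl without DEX, so all 3 groups overlapped. The log2 difference was −0.10 ± 0.12 between mp and GR-bdl without DEX, with a 95% interval of −0.38 to 0.18, and −0.11 ± 0.12 against GR-bdl with DEX. Neither was called (limma adjusted p = 0.554 and 0.52). After centring on hybridization controls JAL34 was called lower in mp than in GR-bdl without DEX (−0.43, limma adjusted p = 0.0283). Against GR-bdl with DEX it then stood at −0.38 (limma adjusted p = 0.0515).

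JAL22 and JAL23 lie near each other in the RefSeq table, with 1 gene between them. JAL22 had intensities of 372 and 306 in mp, against 359 and 272 in GR-bdl with DEX and 243 and 275 in GR-bdl without DEX. The mp arrays lay above both arrays without DEX but overlapped with the DEX group. The log2 difference was 0.38 ± 0.17 against GR-bdl without DEX (limma adjusted p = 0.098) and 0.11 ± 0.17 against GR-bdl with DEX, and 0.27 ± 0.17 between the GR-bdl groups, none of them called. With each array left out these 3 values ranged from 0.24 to 0.52, from −0.09 to 0.31 and from 0.07 to 0.47. The difference from GR-bdl with DEX was −0.09 without DEX-treated GR-bdl array 2 and −0.03 without mp array 1. JAL23 had intensities of 6.12 and 7.39 in mp, against 4.84 and 4.18 in GR-bdl with DEX and 3.94 and 4.62 in GR-bdl without DEX, a weak signal in every group. It was called higher by 0.66 ± 0.15 and 0.58 ± 0.15 against GR-bdl without and with DEX (limma adjusted p = 0.00701 and 0.0128). The first call was lost when an array was left out, with a limma adjusted p of 0.0623 without GR-bdl array 1 of the group without DEX. In the second comparison it was 0.0731 without DEX-treated GR-bdl array 2 and 0.0791 without mp array 2. Centring on hybridization controls ended both calls, with differences of 0.32 and 0.31 (limma adjusted p = 0.151 and 0.164).

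Scaling of the arrays bears on these differences. The 18 hybridization control probe sets, RNA added in fixed amounts before hybridization, were themselves higher in mp by a median of 0.33 against GR-bdl without DEX and 0.24 against GR-bdl with DEX. Between the GR-bdl groups their median difference was 0.05. Centring each array on these controls moved the median of all probe sets between mp and GR-bdl without DEX to −0.22, beside 0.12 as deposited. It gave 2556 higher and 7383 lower calls in place of 5441 and 3989, and 2848 and 6736 in place of 5031 and 4083 against GR-bdl with DEX. After it NAI1 (1.30) and JAL33 (0.70) were still called higher by limma. JAL23 and NAI2 were not called, JAL34 was called lower and PYK10 stood at −0.23. Against GR-bdl with DEX the same centring put PYK10 at −0.17 and JAL22 at −0.16, neither called. With the median difference of all probe sets subtracted, which makes the values independent of such centring, mp differed from GR-bdl without DEX by 1.52 for NAI1, 0.91 for JAL33, 0.55 for NAI2, 0.54 for JAL23, 0.26 for JAL22, −0.01 for PYK10 and −0.21 for JAL34.

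**Figure D4:**
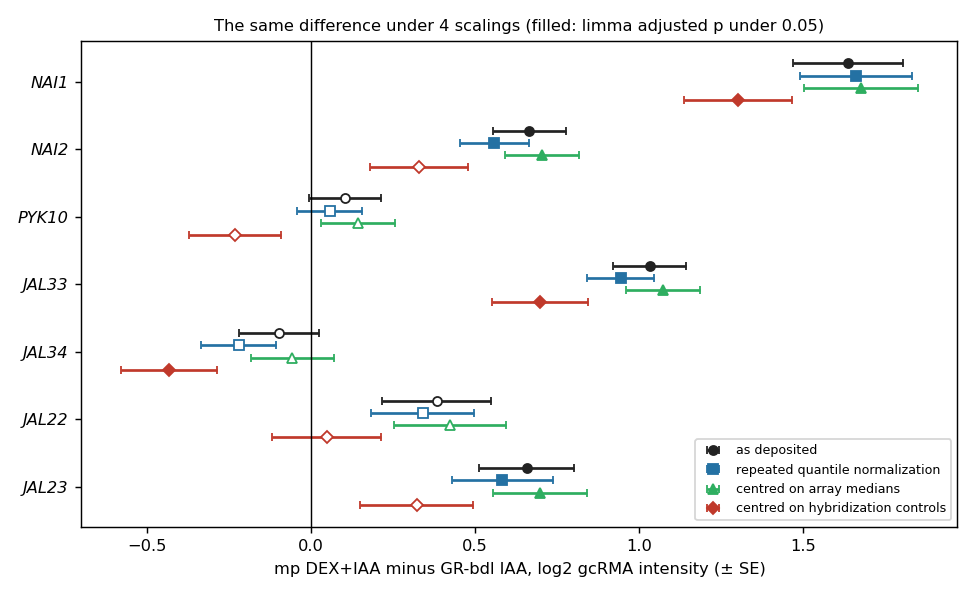
The log2 difference of mp from GR-bdl without DEX (horizontal axis, ± SE) is drawn for each ER body gene under 4 scalings of the arrays, with filled points where the limma adjusted p was under 0.05. Centring on hybridization controls shifts every gene down by the same amount, and NAI1 (1.30) and JAL33 (0.70) remain called higher there.

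Markers of organs and of the ER were compared in the same fit. The root hair genes EXPA7 and EXPA18, which encode expansins, fell in mp by 3.80 ± 0.22 and 2.89 ± 0.25 against GR-bdl without DEX. EXPA7 had intensities of 11.6 and 13.6 in mp, against 100 and 150 in GR-bdl with DEX and 149 and 204 in GR-bdl without DEX, and both genes were weak in mp. Of 4 photosynthesis genes measured, SBPASE was called higher in mp than in GR-bdl without DEX (0.31 ± 0.11, limma adjusted p = 0.0451). Of all probe sets 23.9% were called higher there. Against GR-bdl with DEX SBPASE was not called (0.28 ± 0.11, limma adjusted p = 0.063). RCA, PRK and LHCB4.1 were not called against GR-bdl without DEX (−0.18, 0.08 and −0.17). RCA and LHCB4.1 had mean log2 intensities above 13, where few probe sets were called in that comparison, 3.85% higher and 3.85% lower. The endodermal CASP genes had no probe set of their own. CRT2, an ER calreticulin gene and the only one measured of 10 ER folding genes, fell by 0.58 ± 0.14 in mp against GR-bdl without DEX. In whole seedlings, fewer cells of a type and less RNA per cell cannot be told apart, and the part of the lower root hair signal in the ER body values was not tested. UGT74B1, the only one measured of 9 genes of indole glucosinolate formation, was not called against GR-bdl without DEX (−0.09 ± 0.11) and was lower in mp than in GR-bdl with DEX (−0.48 ± 0.11, limma adjusted p = 0.00987). None of 12 listed myrosinase and specifier protein genes and none of 8 jasmonate genes had a probe set of its own.

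The genes with the most similar pattern over the 6 arrays were found by Pearson correlation of log2 values, as a description. Candidates were probe sets paired with 1 gene whose SD over the arrays was from 0.5 to 2 times that of the member. For NAI1 these were AT1G07440 (r = 0.999) and AT3G04550, for NAI2 AT3G61610 (r = 0.999) and AT1G80910, and for JAL33 GLR3.3 (r = 0.999), a glutamate receptor-like channel gene, and AT1G20490. For JAL23 they were AT4G35987 (r = 0.996) and AT2G35450. A high correlation was common, since 21.9% of the candidates for NAI1, 10.0% for NAI2, 18.8% for JAL33 and 3.65% for JAL23 reached 0.95. The points share the step between the 2 mp arrays and the 4 GR-bdl arrays, and 9430 probe sets were called between mp and GR-bdl without DEX.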

How the data were processed

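RNA was measured on 6 Affymetrix ATH1 arrays, 1 per culture, in 3 groups of 2. The deposited values are gcRMA intensity values on a linear scale, per the submitters' processing notes, with no version given in the sources used here. The method corrects background by probe sequence, normalizes between arrays and summarises each probe set. Groups came from the source label and the design text, since a treatment field shared by all samples mentions DEX throughout. Replicate numbers name the cultures.

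The log2 of each intensity was taken without pseudocount or filter. After removal of 64 control probe sets, 22746 remained, of which 13513 were paired with 1 gene in the platform annotation, 503 with several and 8730 with none. Names come from RefSeq (TAIR10.1), which matched 13436 of the 13513 and was used for names and neighbours only. limma 3.58.1 in R 4.3.3 was fitted to all 6 arrays with 1 mean per group (lmFit, eBayes; 3 residual and 5.12 prior degrees of freedom), with Benjamini-Hochberg adjustment over all probe sets and a threshold of 0.05. The script was tested on simulated data. The number of arrays limits the precision. Figures used Python 3.11.15 and matplotlib 3.10.9.

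The members, gene lists and alternatives were chosen with earlier results of these data known. Named were all members, every measured gene of lists with up to 6, the 3 largest called increases and decreases of larger lists, and genes most similar in pattern. Single neighbours and the probe set shared by BGLU21 and BGLU22 were named after their values were seen. Alternatives were other scalings, a pseudocount of 1, a filter on means above 4, other eBayes settings, fewer arrays, the replicate block and an exact permutation test. No sequence or coordinates are given.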

Additional observations from a re-analysis of the deposited data

How the results depend on the processing

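Across 3 scalings, a pseudocount of 1, the filter on low means, the 4 arrays compared alone, other eBayes settings, the replicate block and leaving out each array, NAI1 and JAL33 kept their calls in both mp comparisons wherever they were tested. The filter left out NAI1 and JAL23, whose means lay under 4. Centring on the hybridization controls ended the calls of NAI2 (0.33 in each mp comparison) and JAL23 (0.32 and 0.31), and gave JAL34 a call of −0.43 against GR-bdl without DEX. It turned the sign of PYK10, which was not called under any setting. With each array left out, JAL23 ranged from 0.52 to 0.79 against GR-bdl without DEX and from 0.45 to 0.72 against GR-bdl with DEX, and 3 of these fits ended its call. JAL34 against GR-bdl without DEX ranged from −0.20 to 0.01, and NAI1 between the GR-bdl groups from −0.0059 to 0.48. No member was called between the GR-bdl groups under any setting. The number of probe sets called in that comparison, 517, ranged from 240 to 437 with each array left out; it was 275 without control array 1, 240 without control array 2, and 608 after centring on the hybridization controls. The split of calls in mp against GR-bdl without DEX was 57.7% higher, and 25.7% after that centring; against GR-bdl with DEX it was 55.2% and 29.7%.

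The exact permutation test over 4 arrays, two-sided, cannot go below p = 0.333. All called differences had that p: 1.64, 1.03, 0.66 and 0.66 (NAI1, JAL33, NAI2 and JAL23) against GR-bdl without DEX, and 1.40, 0.84, 0.59 and 0.58 against GR-bdl with DEX. Uncalled differences had it too: PYK10 in both mp comparisons, JAL22 against GR-bdl without DEX, and JAL33 between the GR-bdl groups. This test therefore cannot tell called from uncalled differences. Deviations of arrays with the same replicate number correlated at 0.10, −0.04 and −0.03 between groups, so the numbers were not taken as pairs. With the replicate block 9276, 9045 and 559 probe sets were called, against 9430, 9114 and 517 without it, for mp against GR-bdl without DEX, mp against GR-bdl with DEX and the DEX comparison, and no member's call changed.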

Other observations

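Genes on either side of the members in the RefSeq order were looked at after their values were seen. AT3G09250, the gene beside PYK10, had intensities of 637 and 685 in mp, against 233 and 216 in GR-bdl with DEX and 208 and 225 in GR-bdl without DEX, and rose by 1.61 ± 0.11 in mp against GR-bdl without DEX (limma adjusted p = 1.1e-05). AT3G15940, beside NAI2, was not called (0.10 ± 0.14). AT3G15970, 2 genes from NAI2, was called higher by 0.71 ± 0.22 in mp against GR-bdl without DEX (limma adjusted p = 0.032). Against GR-bdl with DEX it was not called (0.40 ± 0.22, limma adjusted p = 0.188), and its values in mp and in that group overlapped. AT2G39300, beside JAL22, was weak in all 3 groups (mean log2 under 4) and was called lower in mp by both comparisons, with −0.84 ± 0.17 against GR-bdl without DEX (limma adjusted p = 0.00508) and −0.73 ± 0.17 against GR-bdl with DEX (limma adjusted p = 0.0107). AT2G39320, between JAL22 and JAL23, AT3G15930, 2 genes from NAI2, and AT3G09280, 2 genes from PYK10, were weak in all 3 groups and were not called.

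RNA quality values also differed between the lines. The 3′ minus 5′ log2 value of the ubiquitin control was 1.14 and 0.86 in mp, against 0.53 and 0.68 in GR-bdl with DEX and 0.68 and 0.69 in GR-bdl without DEX. For the GAPDH control it was −0.67 and −0.82 in mp, against −0.62 and −0.63 in GR-bdl with DEX and −0.62 in both arrays of GR-bdl without DEX. The 24 poly-A control probe sets are designed for RNA added before labelling, and whether such RNA was used here was not checked. These probe sets were higher by a median of 0.61 in mp than in GR-bdl without DEX. They were higher by 0.19 in mp than in GR-bdl with DEX, and by 0.36 in GR-bdl with DEX than in GR-bdl without DEX. Their part in the ER body values was not tested.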
